A study of Mus musculus with 15 samples.

Results

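Complement is a set of plasma and tissue proteins that mark cells, debris and microbes for uptake, and 9 of its genes were followed here in mouse hearts under pressure overload: C1qa, C1qb, C1qc, C1ra, C3, C4b, C6, C7 and Serping1. They were chosen by gene symbol from the 54532 genes of the deposited FPKM table (reads per kilobase of gene, scaled to the size of the library). Of the 9 genes, 8 reached the level asked for testing, at least 0.5 FPKM in at least 5 of 15 libraries, as did 13396 genes in all. C6 did not.

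The hearts came from wild-type C57BL/6 mice whose aortic arch had been narrowed surgically (transverse aortic constriction, TAC) at an age of 8 to 10 weeks. Once the constriction had lasted 4 weeks, 15 mice per group were assigned at random to 1 of 3 treatments. These were physiological saline, the acetylcholinesterase inhibitor donepezil at 5 mg/kg/day, and encenicline (EVP-6124), an agonist of the alpha7 nicotinic acetylcholine receptor, at 2 mg/kg/day. The drugs were given in the drinking water, and every library is labelled TAC 8 weeks. There are 5 libraries per group and no unoperated heart, so every group shares the constriction, and the question addressed is which drug, if either, moved these genes in hearts that were already overloaded. The labels name neither the chamber nor whether a library is 1 mouse. Groups follow the titles; for donepezil 1 the treatment field names saline, and for encenicline 1 it names donepezil.

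In the classical pathway, C1q binds a target and carries a pair of proteases, C1r and C1s. C1s cleaves C4 and C2, which form an enzyme that cleaves C3, the component on which the classical, lectin and alternative pathways meet. Fragments of C3 and C4 tag surfaces for phagocytes, and the terminal components C5 to C9 assemble into a membrane pore. C1 inhibitor, the product of Serping1, inactivates C1r, C1s and the lectin pathway proteases. In many tissues resident macrophages are the main source of C1q, while fibroblasts and other stromal cells make C1r, C1s, C1 inhibitor and C3, and the liver supplies most of the plasma pool.

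The 3 subunit genes of C1q lie side by side on the minus strand of mouse chromosome 4 in the order C1qb, C1qc, C1qa, within chr4:136880129-136898803 (GRCm38), with gaps of 3616 and 2851 bases and no other protein-coding gene between them. C1ra is on chromosome 6 (chr6:124512405-124523443, plus strand), C3 and C4b on chromosome 17 (chr17:57203970-57228136 and chr17:34728380-34743882, minus strand), and Serping1 on chromosome 2 (chr2:84765387-84775444, minus strand). C6 (chr15:4727175-4814967, plus strand) and C7 (chr15:4988762-5063740, minus strand) are 173794 bases apart on chromosome 15. No protein-coding gene overlaps any of the 9. C1ra and C4b have near copies: 48.0% of the 50-base words of C1ra transcripts also occur in C1rb, and 34.6% of those of C4b occur in C4a, so their values depend on how shared reads were counted. C1rb averaged 0.0142 FPKM and C4a 0.0458 FPKM in these hearts. The other members shared 0% of their words with another gene.

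Promoter sequence was at hand for 6 of the 9 genes, all but C1qa, C4b and Serping1. The 250 bases before the RefSeq start (RefSeq, GRCm38.p6) are printed for 3 genes whose start is not inside the annotated gene: C1qb as the C1q subunit, C3 as the hub of the pathway, and C7 as the member with the smallest p in the fit of all 15 libraries. Capitals mark a motif match.
C1qb, chr4:136886201-136886450, minus strand: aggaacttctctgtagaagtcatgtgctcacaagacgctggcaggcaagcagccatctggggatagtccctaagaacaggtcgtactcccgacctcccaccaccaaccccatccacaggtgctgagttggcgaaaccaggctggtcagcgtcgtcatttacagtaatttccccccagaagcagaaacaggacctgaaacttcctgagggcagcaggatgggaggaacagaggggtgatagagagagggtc
C3, chr17:57228137-57228386, minus strand: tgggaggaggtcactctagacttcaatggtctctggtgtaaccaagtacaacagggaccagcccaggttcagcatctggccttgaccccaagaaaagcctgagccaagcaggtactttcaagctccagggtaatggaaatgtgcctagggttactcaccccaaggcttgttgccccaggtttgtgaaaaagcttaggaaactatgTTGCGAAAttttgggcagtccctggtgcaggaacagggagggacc
C7, chr15:5063774-5064023, minus strand: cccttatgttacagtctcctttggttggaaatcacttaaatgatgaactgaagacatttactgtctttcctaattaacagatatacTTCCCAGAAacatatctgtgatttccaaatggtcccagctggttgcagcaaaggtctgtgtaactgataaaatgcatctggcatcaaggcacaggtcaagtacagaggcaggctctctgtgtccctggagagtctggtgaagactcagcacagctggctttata
The capitals in C3 are TTGCGAAA, 45 to 38 bases before the start, a match to the C/EBP motif TTGCNNAA that 9.56% of 32851 promoters of the same length hold on either strand. The capitals in C7 are TTCCCAGAA, 164 to 156 bases before the start, a match to the STAT motif TTCNNNGAA (GAS core), found in 7.02% of the promoters. The 250 bases of C1qb held no match to any of the 6 motifs searched. C1qc held the PU.1 motif GAGGAAGT on the other strand, 195 to 188 bases before its start, as did 2.44% of all promoters. Matches to the ISRE core, the glucocorticoid receptor half-site pair and the NF-kB motif were found in 0 of the 6 member promoters, against 2.98%, 0.368% and 0.356% of all, on both strands; the motifs do not contain each other. No motif was shared between members, and a match is a run of letters, not a site shown to be bound.

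On average over the 15 libraries, C1q RNA was the largest complement signal among the 9 genes. The order of the levels was C1qa (71.8 ± 17.4 FPKM, SD, n = 15), C1qb (62.8 ± 20.1), Serping1 (57.2 ± 11.3), C3 (38.0 ± 9.64), C1qc (32.0 ± 7.72), C1ra (6.58 ± 1.68), C7 (5.20 ± 1.26), C4b (3.98 ± 2.01) and C6 (0.0477 ± 0.0510). The C1q subunits made up 59.6 ± 3.99% of the summed FPKM of the 9 genes. Some neighbours in this order kept their places in every library and others did not. Serping1 was above C3, C1qc above C1ra and C4b above C6 in 15 of 15 libraries, and C1qa above C1qb in 14. C3 was above C1qc in 13, C1ra above C7 and C7 above C4b in 12 each, and C1qb above Serping1 in 11, so these 4 pairs overlapped. Serping1 varied least between libraries, with a coefficient of variation of 19.7%, and C4b varied most among the tested members, with 50.6%.

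**Figure D1:**
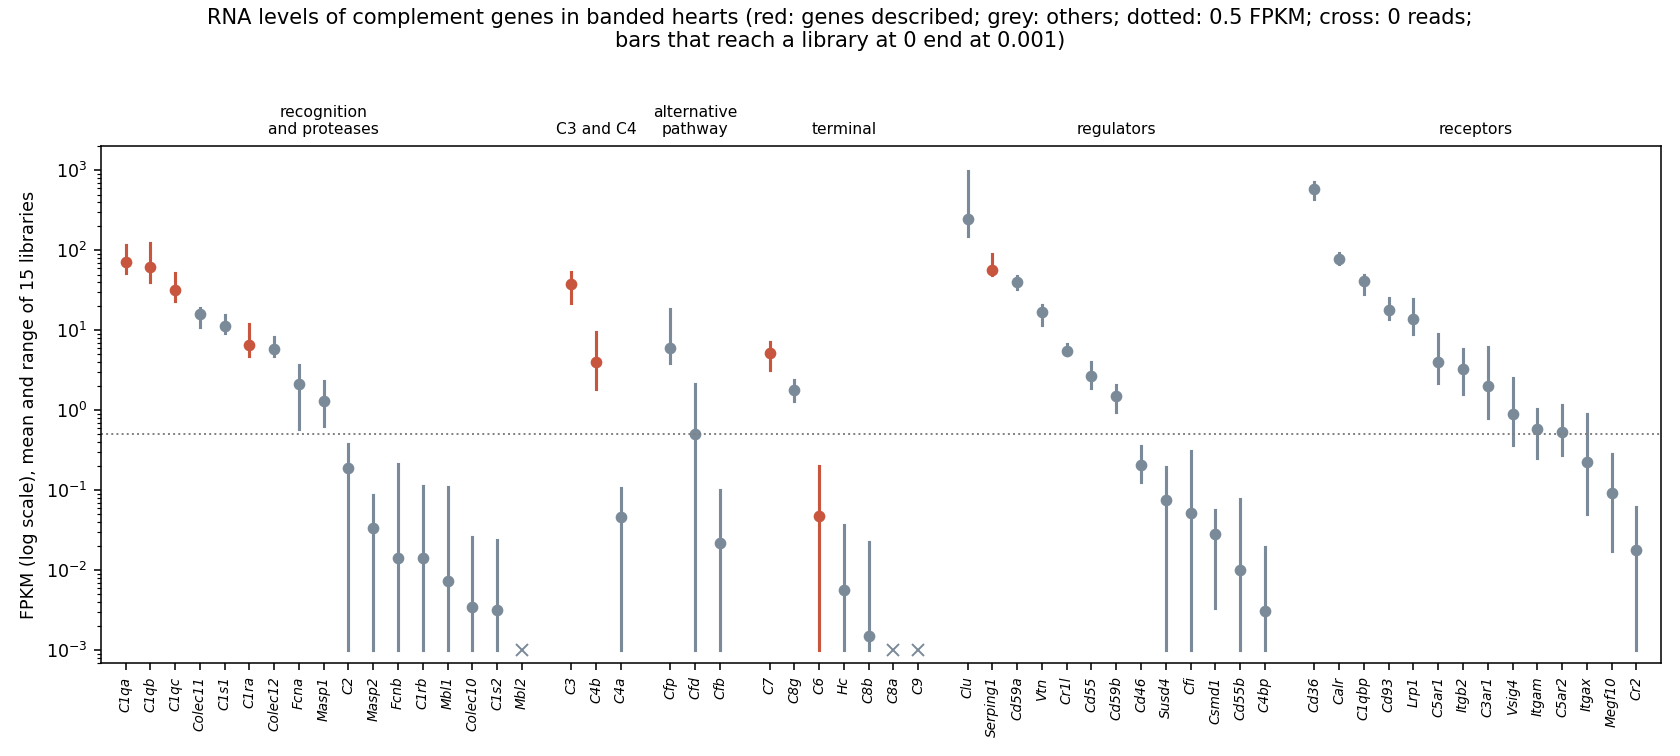
Mean FPKM on a log scale (points) and the range over 15 libraries (bars) for the 9 genes (red) and 48 other complement genes (grey), by role; crosses mark genes with 0 reads and bars that reach a library at 0 end at 0.001. C1qa at 71.8 FPKM and Serping1 at 57.2 FPKM stand near the top, while C6, C8a, C8b and C9 lie below the dotted line at 0.5 FPKM.

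The cell types that the tissue could hold were read from fixed marker lists. Cardiomyocyte markers were present in every library, with Myh6 at 1816 to 3100 FPKM and the lowest, Ryr2, at 23.5 to 45.2 FPKM. Levels within the other lists differed widely. Of the fibroblast genes, Gsn was at 400.2 to 645 FPKM and Dcn at 85.4 to 130 FPKM, but Tcf21 at 3.54 to 5.36 FPKM. Of the macrophage genes, Csf1r was at 8.53 to 21.0 FPKM, but Cx3cr1 at 0.0595 to 2.11 FPKM. Of 5 hepatocyte markers 0 were tested, and Alb was at 0 in every library. The 4 adipocyte markers summed to at most 0.822 FPKM. Reads recovered per library ran from 14496147 to 17176086, with 17.4 to 27.0% mitochondrially encoded. These are libraries of whole tissue, in which fewer cells of a type and less RNA per cell cannot be told apart.

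One library, donepezil 4, stood apart before any group was compared. It had 25893 genes above 0 against 19489 to 20667 in the others, the lowest mitochondrial share (17.4% against 19.5 to 27.0%), and the fibroblast matrix genes Col1a1 at 229 FPKM (at most 42.8 elsewhere) and Postn at 155 FPKM (at most 32.1 elsewhere). Its summed macrophage markers were 74.4 FPKM, against 39.1 to 79.1 FPKM in the others, with saline 3 at the top. Both libraries ranked high for most of the 8 tested members. Donepezil 4 was the highest of 15 for 5 of the 8 tested members and among the top 2 for 7, and saline 3 was highest for 2 and among the top 2 for 7. Against the median of the other 14 libraries, donepezil 4 held 1.77 times the C1qa, 2.18 times the C1qb, 1.77 times the C1qc, 1.96 times the C1ra, 1.93 times the C4b, 1.74 times the Serping1 and 1.45 times the C3, but 1.08 times the C7. Group differences of the members and correlations are given with and without this library where it turned a direction or a call, here or in the closing section. Differences of the other complement genes are given for all 15 libraries only.

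**Figure D2:**
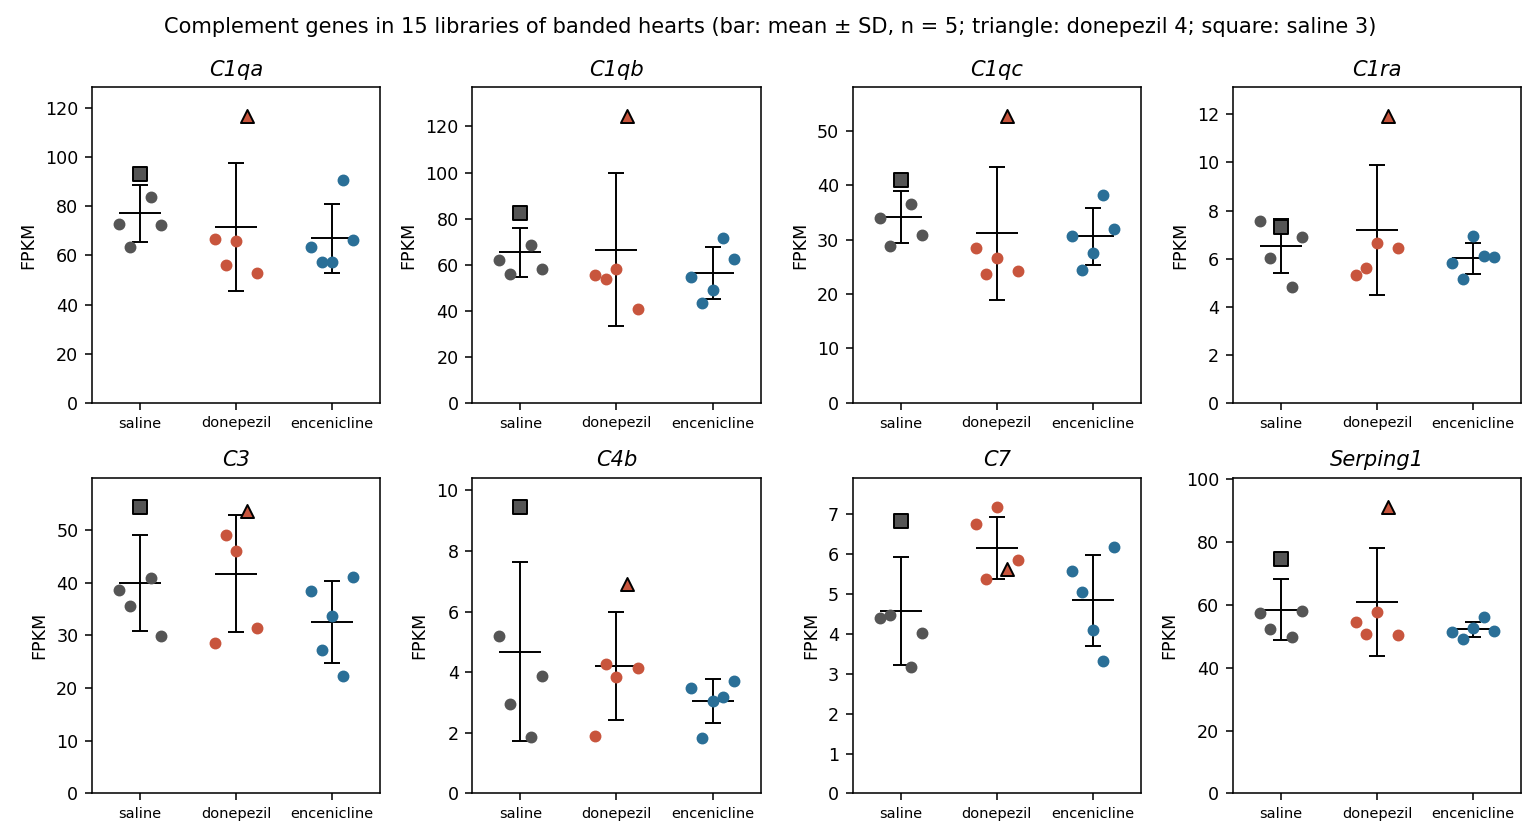
FPKM of the 8 tested genes in each library by group, with the group mean ± SD (n = 5). Donepezil 4 (triangle) is far above the other donepezil libraries for C1qa, C1qb, C1qc, C1ra and Serping1, and inside them for C7, where donepezil libraries lie between 5.39 and 7.20 FPKM.

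The recognition subunits came first. C1qa, C1qb and C1qc encode the A, B and C chains that together form the C1q molecule, and none of the 3 differed between groups beyond the spread between libraries. C1qa was at 72.6, 63.6, 93.0, 83.9 and 72.2 FPKM in saline 1 to 5, at 66.5, 56.2, 65.6, 117 and 52.7 FPKM in donepezil 1 to 5, and at 63.2, 57.2, 57.2, 90.8 and 66.2 FPKM in encenicline 1 to 5. Donepezil 4 and encenicline 4 were high in their groups, and all groups overlapped. The limma log2 fold change of C1qa was -0.16 (95% interval -0.56 to 0.25, adjusted p = 0.763) for donepezil against saline and -0.21 (-0.61 to 0.19, adjusted p = 0.729) for encenicline against saline.

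C1qb was at 62.0, 56.1, 82.4, 68.7 and 58.0 FPKM with saline, at 55.5, 54.0, 58.3, 125 and 40.6 FPKM with donepezil, and at 54.8, 43.2, 49.1, 71.7 and 62.6 FPKM with encenicline, in replicate order. Donepezil 4 was the highest of all and donepezil 5 the lowest, so that the donepezil group spanned the other groups. Its limma log2 fold changes against saline were -0.07 (95% interval -0.56 to 0.42, adjusted p = 0.926) with donepezil and -0.22 (-0.72 to 0.27, adjusted p = 0.767) with encenicline. C1qc was at 34.0, 28.8, 40.9, 36.5 and 30.8 FPKM with saline, at 28.5, 23.6, 26.7, 52.8 and 24.2 FPKM with donepezil, and at 30.7, 24.4, 27.6, 38.2 and 32.0 FPKM with encenicline. Of the 5 donepezil libraries 4 were below every saline library and 1, donepezil 4, was above every one. The limma log2 fold change of C1qc was -0.19 (-0.59 to 0.21, adjusted p = 0.690) with donepezil and -0.16 (-0.56 to 0.23, adjusted p = 0.794) with encenicline, each against saline.

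The size of the C1q difference moved with donepezil 4. Without it, an alternative among those that leave out each library, the log2 fold change of donepezil against saline became -0.35 for C1qa (limma unadjusted p = 0.0253, adjusted p = 0.187), -0.33 for C1qb (unadjusted p = 0.0498, adjusted p = 0.258) and -0.40 for C1qc (unadjusted p = 0.00626, adjusted p = 0.0965). None of these passed after adjustment over all genes. Of the 12 macrophage markers, 10 had lower and 2 higher fitted values with donepezil than with saline in the fit of 15 libraries, where 50.4% of all genes were lower, and the same counts held with encenicline, where 48.8% were lower. The 5 endothelial and the 3 erythroid markers were all lower with each drug as well, and 1 of these 8 passed, where 2.12% of all genes did: Kdr, an endothelial receptor named after its values were seen, at 35.7 ± 4.59 FPKM with saline and 22.5 ± 6.14 FPKM with donepezil (SD, n = 5; limma adjusted p = 0.0465). With encenicline the tested smooth muscle and pericyte (4), mesothelial (5) and neutrophil (3) markers were all lower too, and 8 of 10 fibroblast markers. Of the 6 cardiomyocyte markers 5 were higher. With donepezil 3, 4, 1 and 4 of these 4 lists were lower, and 4 of the 6 cardiomyocyte markers. The part of these markers in the C1q values was not tested. The summed macrophage markers had a median of 56.6 FPKM (range 47.5 to 79.1) with saline, 58.3 FPKM (39.3 to 74.4) with donepezil and 50.8 FPKM (39.1 to 60.8) with encenicline, so the groups overlapped. Of the 12 macrophage markers, 1 passed (2.12% of all genes did for donepezil against saline): Timd4, a receptor of resident macrophages, named here after its values were seen. In the 5 libraries of a group it averaged 0.918 ± 0.254 FPKM (SD) with saline, 0.237 ± 0.127 FPKM with donepezil and 0.71 ± 0.078 FPKM with encenicline. The limma adjusted p was 0.00345 for donepezil against saline and 0.0221 for encenicline against donepezil, where 0.933% of all genes passed. Timd4 had 5 to 45 reads per library. It met the level asked for testing only through saline and encenicline libraries, as donepezil libraries reached at most 0.455 FPKM. Its p-values are therefore description only.

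The ratios between the subunits varied less than their levels. The ratio of C1qa to C1qb was 1.16 ± 0.103 and that of C1qc to C1qb 0.519 ± 0.0488 (SD, n = 15), while C1qb itself spanned 40.6 to 125 FPKM. These ratios ranged from 0.937 to 1.32 and from 0.423 to 0.597, and both were lowest in donepezil 4, the library with the most C1qb. Deviations of the 3 subunits from their group means correlated across libraries with Pearson's r of 0.96 for C1qa with C1qb, 0.97 for C1qa with C1qc and 0.96 for C1qb with C1qc (Spearman's rho 0.95, 0.93 and 0.95), each with a permutation p of 1e-05, the smallest that 100000 resamples can give, and an adjusted p of 0.000147 over 44 relations. A further version left out 2 libraries, chosen for each relation anew. They were those farthest from the median log2 value, before centring, of the marker sum or of the member that comes first in the opening list. Without these 2 libraries r was 0.87, 0.92 and 0.95, and without donepezil 4 it was 0.90, 0.93 and 0.89. These were the only 3 of the 44 relations that passed at an adjusted p under 0.05 in all 3 versions. Relative to Csf1r, the macrophage colony-stimulating factor receptor, C1qa stood at a ratio of 6.08 ± 0.853, C1qb at 5.23 ± 0.598 and C1qc at 2.71 ± 0.356 (SD, n = 15). Csf1r in donepezil 4 was 1.83 times the median of the other libraries, near the 1.77 to 2.18 times of the subunits.

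**Figure D3:**
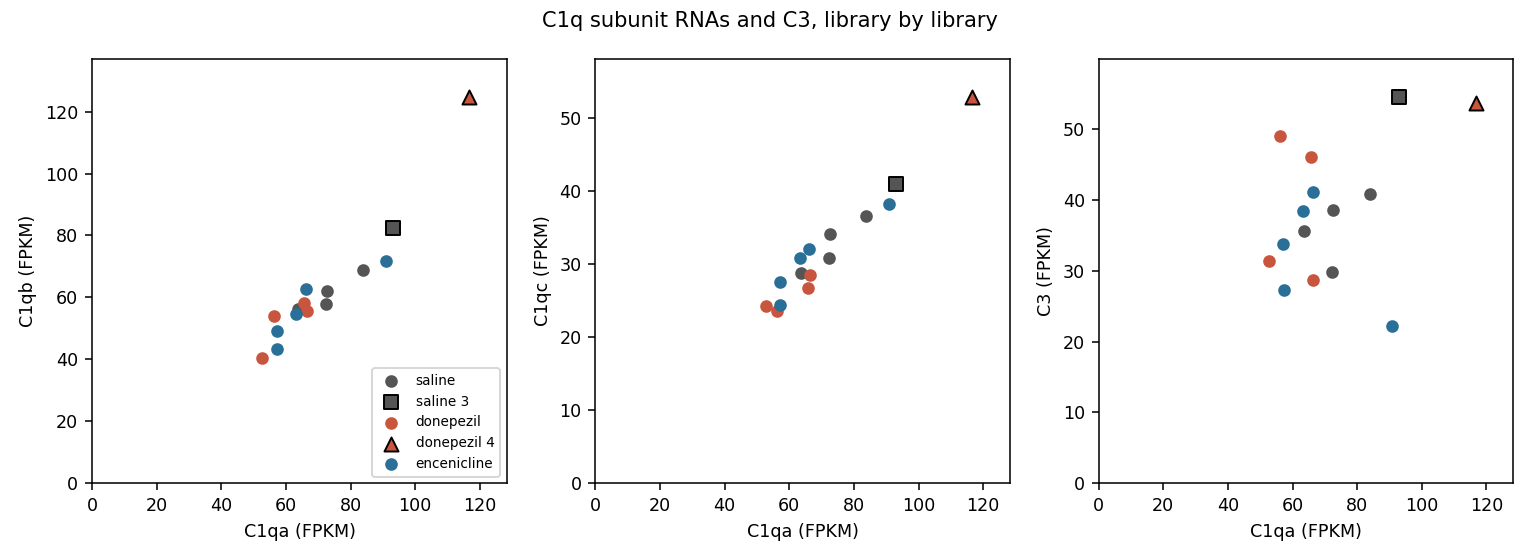
FPKM of C1qb, C1qc and C3 (y axes) against C1qa (x axes) in each of 15 libraries. The C1q subunits lie along a line from donepezil 5 to donepezil 4, whereas C3 at a given C1qa level ranges widely, with encenicline 4 at 22.2 FPKM of C3 and 90.8 FPKM of C1qa.

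Among the proteases, C1ra encodes a mouse C1r, the enzyme that activates C1s. C1ra was at 7.58, 6.02, 7.31, 4.83 and 6.88 FPKM with saline, at 5.33, 5.62, 6.64, 11.9 and 6.43 FPKM with donepezil, and at 5.83, 5.15, 6.94, 6.12 and 6.06 FPKM with encenicline. Donepezil 4 was the only library above 7.58 FPKM, and the groups overlapped throughout. The limma log2 fold changes against saline were 0.09 (95% interval -0.28 to 0.46, adjusted p = 0.869) with donepezil and -0.10 (-0.47 to 0.27, adjusted p = 0.876) with encenicline. The first of these turned to -0.10 without donepezil 4. C1s1, its substrate protease, which was named after its values were seen, averaged 11.2 ± 1.87 FPKM (SD, n = 15) and had limma log2 fold changes of 0.15 (adjusted p = 0.632) and -0.06 (adjusted p = 0.893) in the same comparisons.

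C3 and C4b encode the components whose fragments are deposited on targets. C3 was at 38.6, 35.6, 54.4, 40.8 and 29.9 FPKM with saline, at 28.6, 49.0, 46.0, 53.6 and 31.4 FPKM with donepezil, and at 38.4, 27.3, 33.7, 22.2 and 41.2 FPKM with encenicline. Encenicline libraries reached lower and donepezil libraries split into a low pair and a high trio, with overlap between all groups. The limma log2 fold change of C3 was 0.05 (95% interval -0.39 to 0.49, adjusted p = 0.942) for donepezil and -0.30 (-0.73 to 0.14, adjusted p = 0.657) for encenicline against saline, and -0.34 (-0.78 to 0.09, adjusted p = 0.448) for encenicline against donepezil. C4b was at 5.20, 2.97, 9.47, 1.86 and 3.89 FPKM with saline, at 1.90, 4.26, 3.83, 6.92 and 4.13 FPKM with donepezil, and at 3.48, 1.83, 3.04, 3.17 and 3.70 FPKM with encenicline. Saline 3 was far above the other saline libraries, and the groups overlapped. C4b gave the widest limma intervals of the 8 genes: -0.05 (-0.77 to 0.66, adjusted p = 0.967) with donepezil and -0.40 (-1.12 to 0.31, adjusted p = 0.712) with encenicline, each against saline. The size of the encenicline value depended on single libraries. It was -0.12 without saline 3 and -0.26 without encenicline 2, but -0.64 without saline 4.

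Of the terminal components, C7 had the largest fitted difference of the 8 members in the fit of 15 libraries and C6 was near the limit of detection. The difference of C4b with encenicline against saline, -0.40 in that fit, was the larger one with TPM scaling (-0.55), limma voom (-0.57) and scaling without mitochondrial genes (-0.46), where C7 had 0.35, 0.40 and 0.39. C4b also had the larger one without saline 2, 4 or 5 (-0.50, -0.64 and -0.42, beside 0.42, 0.31 and 0.39 for C7). The same held without donepezil 1 and encenicline 1 (-0.45 beside 0.39) and with groups by the treatment field (-0.30 beside 0.28). It also held without encenicline 1 or 5 (-0.45 and -0.47, beside 0.42). For encenicline against donepezil, C4b reached -0.57 with 1 library left out and -0.62 over all alternatives. Without saline 3 the difference of C4b with encenicline against saline was the smaller one (-0.12 beside 0.56). C7 joins the growing complex after C6 and gives it its hold on the membrane. C7 was at 4.40, 4.47, 6.83, 3.17 and 4.02 FPKM with saline, at 6.75, 5.39, 7.20, 5.62 and 5.86 FPKM with donepezil, and at 5.57, 5.06, 4.09, 3.33 and 6.17 FPKM with encenicline. All 5 donepezil libraries were above 4 of the 5 saline libraries, and saline 3, at 6.83 FPKM, reached into the donepezil range. C7 was 0.42 ± 0.17 higher (log2, SE; 95% interval 0.06 to 0.79) with donepezil than with saline, with a limma unadjusted p of 0.0259 and an adjusted p of 0.226, so it did not pass over the 13396 genes. Leaving out saline 3 moved this to 0.56 (limma adjusted p = 0.0783) and leaving out donepezil 4 to 0.45 (adjusted p = 0.195), whereas it was 0.31 without saline 4 (adjusted p = 0.416) and 0.28 with groups by the treatment field (adjusted p = 0.646). Encenicline differed from saline by 0.08 (-0.28 to 0.45, limma adjusted p = 0.893) and from donepezil by -0.34 (-0.70 to 0.03, adjusted p = 0.370). These comparisons share libraries and are not independent of each other.

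C6, the component before C7 in the complex, had 42 reads over all libraries, at most 13 in 1 library (saline 3, 0.202 FPKM), and 0 reads in saline 2, encenicline 2 and encenicline 5. Its mean was 0.0639 FPKM with saline, 0.0539 with donepezil and 0.0252 with encenicline. It was not tested, and small differences at this level were not detectable at this depth. C7 therefore had a mean of 5.20 FPKM in tissue where its neighbour in the complex and on the chromosome averaged 0.0477 FPKM.

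Serping1, the inhibitor of C1r and C1s, was the most even of the members outside donepezil 4 and saline 3. It was at 57.6, 52.3, 74.5, 49.7 and 58.2 FPKM with saline, at 54.6, 50.9, 57.8, 91.3 and 50.5 FPKM with donepezil, and at 51.5, 49.2, 52.5, 56.1 and 51.8 FPKM with encenicline. The encenicline libraries lay within 49.2 to 56.1 FPKM and inside the donepezil and saline ranges but for encenicline 2. The limma log2 fold changes were 0.04 (95% interval -0.27 to 0.34, adjusted p = 0.939) for donepezil and -0.15 (-0.45 to 0.16, adjusted p = 0.753) for encenicline against saline. Serping1 RNA was 8.83 ± 0.942 times that of C1ra (SD, n = 15), with 9.05 ± 1.17 in saline, 8.70 ± 1.04 in donepezil and 8.74 ± 0.752 in encenicline libraries (SD, n = 5).

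Counted together, 0 of the 8 tested members passed at an adjusted p under 0.05 in donepezil against saline, where 2.12% of all genes passed, 0 in encenicline against saline (0.00% of all genes) and 0 in encenicline against donepezil (0.933% of all genes). At an unadjusted limma p under 0.05, 1 of 8, C7, was counted for donepezil against saline (16.1% of all genes), 0 for encenicline against saline (9.22%) and 0 for encenicline against donepezil (15.0%). In 0 of 8 members did the libraries of any pair of groups separate without overlap, against 3.90%, 1.69% and 4.07% of all genes in the same order. The count of lower members was 4 of 8 with donepezil against saline (50.4% of all genes were lower), 7 of 8 with encenicline against saline (48.8%) and 7 of 8 with encenicline against donepezil (49.2%). The members' median log2 fold change was -0.01, -0.19 and -0.19 in these comparisons, beside 0.00 for all genes tested in each. The count for encenicline against saline stayed at 7 or 8 of 8 in every alternative, but the share of all genes is not given for these. It was 8 with TPM scaling and limma voom, among others. There the median of all genes was also below 0, at -0.13 and -0.10, beside -0.35 and -0.30 for the members. Without saline 3 the count was 7 and the members' median -0.11. The other 2 counts moved with the processing and when single libraries were left out. For donepezil against saline, 6 of 8 were lower with TPM scaling and with limma voom, and 3 with groups by the treatment field. For encenicline against donepezil, 8 of 8 were lower in each of these settings. Without donepezil 4, 7 of 8 members were lower with donepezil than with saline (49.2% of all genes; members' median -0.18) and 4 of 8 were lower with encenicline than with donepezil (48.6% of all genes; members' median -0.01). Without saline 3, 2 of 8 were lower with donepezil than with saline (50.8% of all genes; members' median 0.13). Encenicline against saline and encenicline against donepezil share the encenicline libraries, and the C1q genes, which move together, make up 3 of the 8. Without donepezil 4, 4 of 8 members had an unadjusted limma p under 0.05 for donepezil against saline (C1qa, C1qb and C1qc lower, C7 higher), where 19.4% of all genes did. With limma voom on the recovered reads, and in each of the other alternatives, 0 of 8 passed as well. The adjusted p of a member lay between 0.226 and 0.967 for donepezil against saline, 0.657 and 0.893 for encenicline against saline, and 0.370 and 0.962 for encenicline against donepezil.

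**Figure D4:**
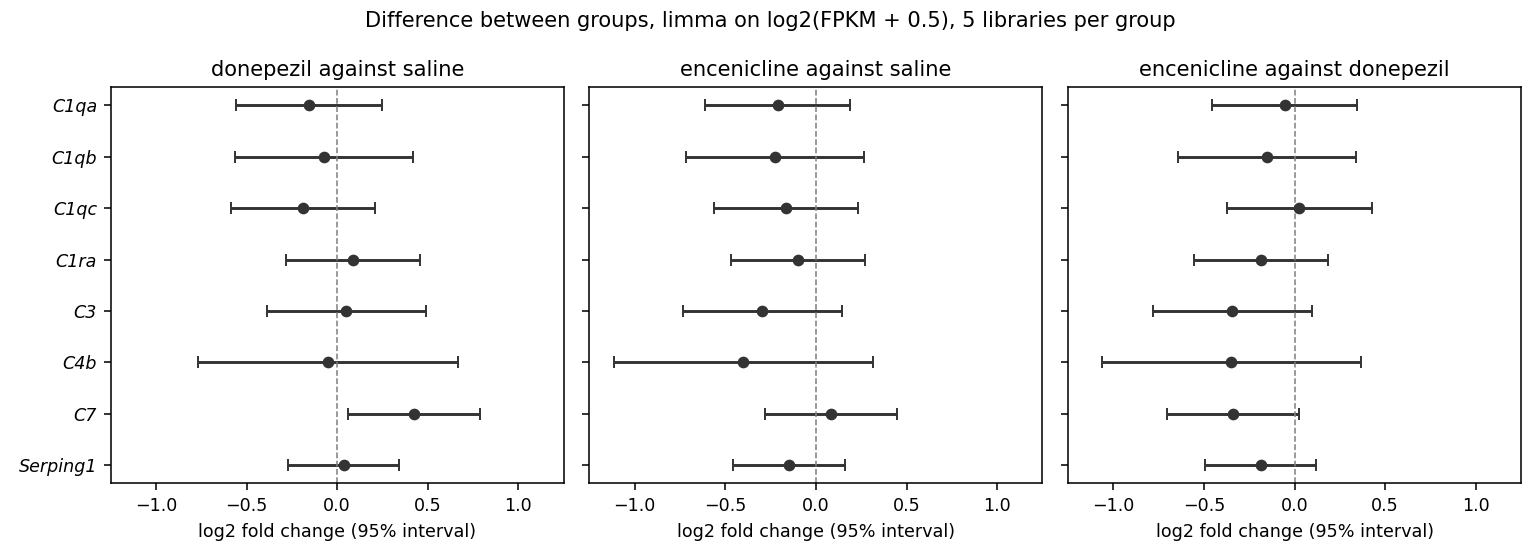
Log2 fold changes of the 8 tested genes (points) with 95% intervals (bars) from limma for the 3 comparisons. Only the interval of C7 for donepezil against saline (0.06 to 0.79) does not cross 0.

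Ratios between members and to a cell-type gene were compared between groups over 12 pairs and 3 comparisons. By exact two-sided permutation tests of 5 against 5 libraries, whose smallest possible p is 0.00794, 0 of 36 passed after adjustment (smallest adjusted p = 0.857). The ratio of Serping1 to C1ra differed by -0.05 on the log2 scale for each drug against saline (exact permutation p = 0.683 with donepezil and 0.603 with encenicline). One ratio, C7 to Col1a1, had an unadjusted exact p of 0.0397: it was 0.346 ± 0.150 with encenicline and 0.189 ± 0.0642 with saline (SD, n = 5), a log2 difference of 0.79 with an adjusted p of 0.857. Over all libraries this ratio ranged from 0.0245 in donepezil 4 to 0.569.

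Outside the C1q genes, correlations between members rested largely on donepezil 4. Of 44 relations of deviations from group means (28 between members, 16 with the summed macrophage or fibroblast markers), 26 passed with all 15 libraries, 3 without the 2 farthest libraries and 9 without donepezil 4. The 2 farthest libraries were not the same for all relations. Serping1 and C1ra, the inhibitor and its target, had r = 0.87 and rho = 0.88 (permutation adjusted p = 0.00088 and 0.00055), but r = 0.44 without the 2 farthest libraries and 0.62 without donepezil 4. C1ra with C4b had r = 0.75 and rho = 0.70 (permutation adjusted p = 0.00511 and 0.0226), with 0.65 and 0.78 in the same reduced sets. Serping1 with the fibroblast sum had r = 0.92 and rho = 0.76 (permutation adjusted p = 0.00044 and 0.0105), with 0.40 and 0.73. Gsn has the highest level in that sum, at 552 FPKM on average, while in donepezil 4 Col1a1, Col3a1 and Postn reached 229, 216 and 155 FPKM of a sum of 1397 FPKM. C1qb with the macrophage sum had r = 0.79 and rho = 0.73 (permutation adjusted p = 0.00126 and 0.0144), with 0.70 and 0.78, and C3 with the macrophage sum had r = 0.76 and rho = 0.76 (permutation adjusted p = 0.00425 and 0.0105), with 0.62 and 0.71. C7 with the macrophage sum had r = 0.31 and with the fibroblast sum 0.14 (permutation adjusted p = 0.312 and 0.677), and without donepezil 4 these were 0.42 and 0.58 (permutation adjusted p = 0.228 and 0.0753), so neither passed.

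**Figure D5:**
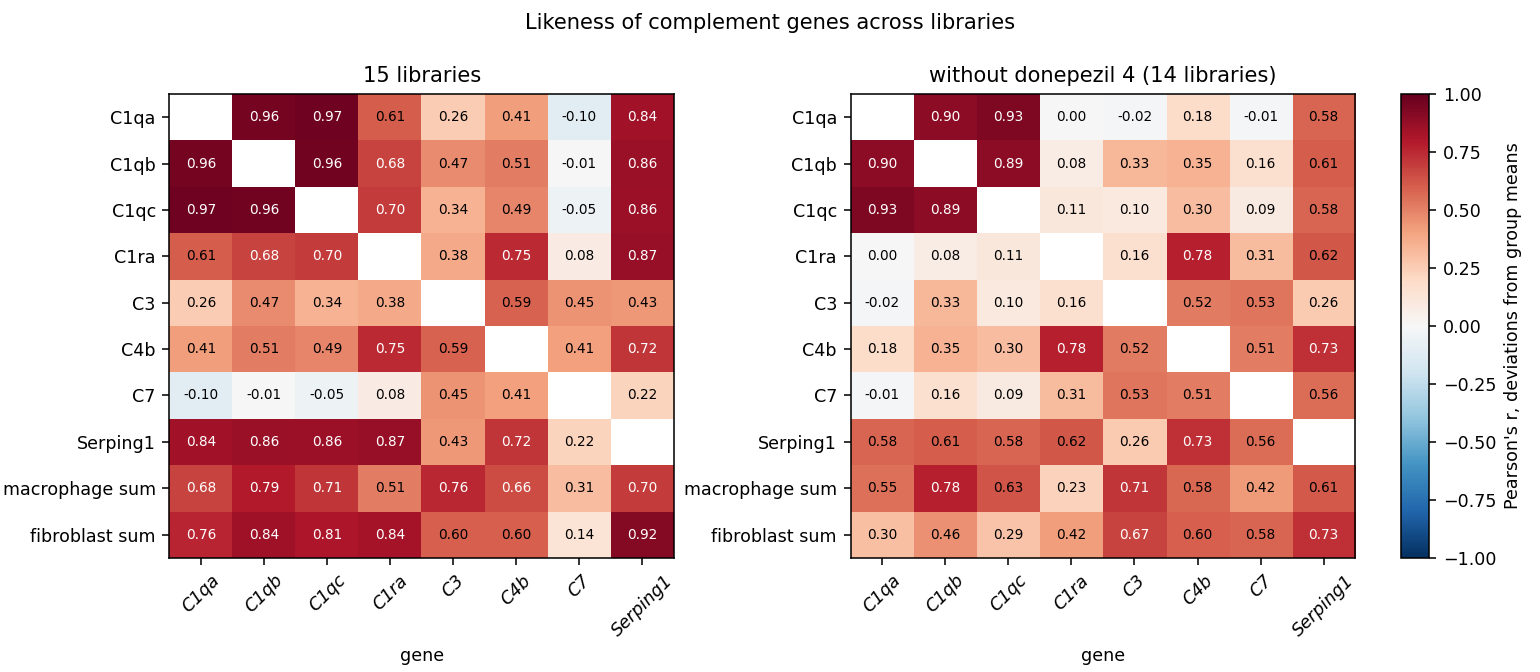
Pearson's r between the tested genes, and between each and the summed macrophage or fibroblast markers, on deviations from group means of log2 values, over 15 libraries (left) and without donepezil 4 (right). The C1q block stays at 0.89 or above on both sides, while C1ra with C1qa goes from 0.61 to -0.0045.

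The genes most like each member across the libraries, by Pearson's r of the same deviations (n = 15), were named for description. For C1qa they were Efemp2 (0.95), Gpx1 (0.94) and Cd68 (0.94), for C1qb Laptm5 (0.98), Cd68 (0.97) and Gpx1 (0.95), and for C1qc Mmp23 (0.97), Cd68 (0.96) and Efemp2 (0.96). Cd68, a lysosomal protein of macrophages, was thus in the list of every C1q subunit, with r of 0.85, 0.91 and 0.89 without donepezil 4. Serping1 was closest to Serpinf1 (0.95), a related serpin, and Eef1a1 (0.95) among the genes reported, and C1ra to Clip3 (0.92), Fam20a (0.92) and Igf1 (0.92). C3 was closest to Scamp5 (0.87), Slc8b1 (0.84) and Stk17b (0.82), C4b to Fam124a (0.86), Fhl1 (0.83) and Casc4 (0.82), and C7 to Emc3 (0.84), Cd47 (0.83) and Adgrl4 (0.80). The genes like C3, C4b and C7 kept their r without donepezil 4 (0.79 to 0.85), and those like C1ra fell to between 0.75 and 0.77. All libraries share tissue, assay and depth range.

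The remaining pathway was read from 48 other complement genes, of which 25 were tested and 0 rose or fell at an adjusted p under 0.05 in any of the 3 comparisons. At an unadjusted limma p under 0.05 there were 8 of 25 for donepezil against saline (16.1% of all genes), 3 of 25 for encenicline against saline (9.22%) and 2 of 25 for encenicline against donepezil (15.0%). The 25 had a median log2 fold change of -0.08, 0.00 and 0.00. The untested 23 peaked at 0.900 FPKM (Itgax). Mbl2, C8a and C9 had 0 reads in every library, which allows up to 0.203, 0.0615 and 0.0875 FPKM at 3 reads in 1 library. Named after their levels were seen, the alternative pathway enzyme Cfb averaged 0.0221 FPKM, C2 0.191, C5 (Hc) 0.00577 and Cfi 0.0520, all untested, while the regulator Clu, encoding clusterin, averaged 247 FPKM and was at 990 FPKM in donepezil 4 against at most 225 elsewhere.

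The other complement genes closest to the threshold were a regulator, receptors and a recognition molecule. Vtn encodes vitronectin, which keeps the terminal complex from inserting into membranes; over the 5 libraries of a group it averaged 18.5 ± 1.57 FPKM (SD) with saline, 14.6 ± 1.91 with donepezil and 18.6 ± 1.47 with encenicline. Its limma log2 fold change was -0.34 (adjusted p = 0.0672) for donepezil against saline and 0.34 (adjusted p = 0.0885) for encenicline against donepezil. In the latter the libraries did not overlap for Vtn, nor for Calr below, where 4.07% of all genes separated. Cd36, a scavenger receptor, averaged 486 ± 22.9 FPKM with saline, 659 ± 115 with donepezil and 598 ± 66.1 with encenicline. Its differences from saline were 0.42 (limma adjusted p = 0.0933) and 0.30 (adjusted p = 0.525). Encenicline libraries did not overlap with saline libraries for Cd36, where 1.69% of all genes separated. Donepezil 4 was at 455 FPKM of Cd36, the other donepezil libraries at 687 to 722 FPKM, and saline libraries at most at 504 FPKM. Fcna, a ficolin of macrophages, averaged 2.78 ± 0.766 FPKM with saline, 1.45 ± 0.640 with donepezil and 2.13 ± 0.624 with encenicline, a log2 difference of -0.78 for donepezil against saline (limma adjusted p = 0.109). Cd93, an endothelial and myeloid surface protein, averaged 21.0 ± 3.57 FPKM with saline, 16.0 ± 1.58 with donepezil and 17.5 ± 2.48 with encenicline (limma adjusted p = 0.125 for donepezil against saline). None of these passed in the fit of 15 libraries.

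Of the remaining genes named by rule, Cd59a and Cd59b encode close copies of the inhibitor of the membrane pore, and their reads could have been split between them. Cd59a averaged 35.7 ± 3.68 FPKM with saline, 43.4 ± 4.71 with donepezil and 43.4 ± 4.60 with encenicline (limma adjusted p = 0.164 and 0.503 against saline). Cd59b averaged 1.63 ± 0.230 FPKM with saline, 1.19 ± 0.190 with donepezil and 1.73 ± 0.449 with encenicline (limma adjusted p = 0.239 for donepezil against saline and 0.218 for encenicline against donepezil). Cfp encodes properdin, which stabilises the alternative pathway enzyme, and averaged 8.38 ± 5.78 FPKM with saline, where saline 4 was at 18.6 FPKM, and 4.42 ± 0.594 with encenicline (limma adjusted p = 0.514). Cr1l encodes Crry, a mouse membrane regulator of C3 cleavage, and averaged 5.33 ± 0.0854 FPKM with saline, 5.36 ± 0.214 with donepezil and 5.90 ± 0.567 with encenicline (limma adjusted p = 0.374 for encenicline against donepezil). Calr encodes calreticulin, a chaperone that also binds C1q, and averaged 78.5 ± 9.74 FPKM with saline, 72.3 ± 1.93 with donepezil and 80.5 ± 3.62 with encenicline (limma adjusted p = 0.361 for encenicline against donepezil).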

How the data were processed

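RNA of mouse hearts was sequenced in 15 libraries. The build GRCm38, DESeq 1.8.3, featureCounts 1.5.0-p3 and HISAT are listed, without role or order, per the submitters' processing notes. The authors deposited FPKM per gene, and no further unit was used as deposited. Multiplied by gene length and 1 constant per library, 100% of the values were whole reads (within 0.05), 14496147 to 17176086 per library. The implied library size was 0.925 to 1.15 times this total, by a step not given in the sources used here. Of the gene symbols, 27 that had become dates were restored from identifiers, and 0 sample columns stayed unmapped. Gene coordinates match GENCODE vM21 (GRCm38).

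The filter asked for 0.5 FPKM or more in 5 or more libraries. limma 3.58.1 (R 4.3.3, with data.table in version 1.17.8) was fitted to log2(FPKM + 0.5) of all 15 libraries without a block, two-sided, with a mean-dependent prior and Benjamini-Hochberg adjustment over 13396 genes per comparison. Fold changes are on that scale and understate those of low genes. Ratios were tested by exact permutation and correlations by 100000 permutations of deviations from group means, each adjusted within its family (Python 3.11.15, numpy 2.4.6, pandas 2.3.3, scipy 1.17.1). The pipeline was tested on simulated data.

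Groups follow the titles. Labels do not say that libraries are separate mice, so p-values measure the spread between libraries, which may be technical. Floors and read counts cover counting error only. The members, marker lists, complement list and tests were chosen with earlier results of these data known. Named are all members; of the other complement genes any that passed, otherwise up to 4 per comparison with the smallest p and a mean of at least 1 FPKM; and for each member the 3 most correlated protein-coding genes. Genes named outside this rule are marked so, and a few genes of the complement list and the correlated genes are not reported here and do not enter the list's counts. The alternatives tried were no filter or 1 at 2 FPKM, other pseudocounts (0.1 and 1), median-ratio, quantile, TPM and non-mitochondrial scaling, only the 10 libraries compared, a replicate block, limma voom on recovered reads, the treatment field as group, leaving out donepezil 1 and encenicline 1, and leaving out each library. Correlations without donepezil 4 were added after seeing the data.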

Additional observations from a re-analysis of the deposited data

Results flagged for a closer look

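Within each group of 5 libraries, the gap between the end library and its nearest neighbour was set against the group's whole range for the 8 tested members, the 9 other complement genes named by rule and Clu, 18 genes and 54 groups in all. Clu was added after its value in donepezil 4 was seen. In 13 groups the end library lay beyond Dixon's 95% limit, which a single group passes by chance about 1 time in 20. The 54 groups share libraries, the C1q genes move together and Clu was chosen for its value. The 13 therefore cannot be read as an excess over chance.

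Donepezil 4 was the high end for C1qa (117 FPKM, the other donepezil libraries 52.7 to 66.5), C1qb (125 FPKM, others 40.6 to 58.3), C1qc (52.8 FPKM, others 23.6 to 28.5), C1ra (11.9 FPKM, others 5.33 to 6.64) and Serping1 (91.3 FPKM, others 50.5 to 57.8). The same library was the high end for Clu (990 FPKM, others 184 to 204) and the low end for Cd36 (455 FPKM, others 687 to 722) and Cr1l (4.98 FPKM, others 5.43 to 5.48).

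Encenicline 4 was the high end for C1qa (90.8 FPKM, others 57.2 to 66.2). Saline 4 was the low end for Cd36 (445 FPKM, others 491 to 504) and the high end for Cfp (18.6 FPKM, others 5.02 to 6.79). Saline 1 was the high end for Cd59a (42.2 FPKM, others 33.0 to 34.6), and donepezil 1 for Cfp (7.62 FPKM, others 4.05 to 5.01).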

How the results depend on the processing

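In each comparison 0 of the 8 members passed under each of the 23 alternatives. In encenicline against saline 0 genes passed with each of them. In donepezil against saline 284 genes passed (158 higher, 126 lower), and 119 without the filter, 162 with TPM scaling, 63 with only the 10 libraries compared, 82 without donepezil 1 and encenicline 1 and 0 with groups by the treatment field. In encenicline against donepezil 125 passed (59 higher, 66 lower), and 46, 53, 116, 27 and 0 in the same order. Leaving out each library gave 105 to 409 and 48 to 177 genes, with over 1.5 times fewer without saline 2 or 4 or donepezil 1, 2 or 3 in the first and donepezil 1 or 2 or encenicline 2, 4 or 5 in the second. The split of higher and lower was 56 and 106 with TPM scaling, 127 and 151 without mitochondrial genes in the scaling and 106 and 173 with limma voom in the first, and 17 and 36, 50 and 79, and 59 and 95 in the second. TPM scaling moved the median log2 value over all tested genes to -0.07, -0.13 and -0.07 (donepezil against saline, encenicline against saline, encenicline against donepezil), and limma voom moved the second to -0.10. Replicate numbers are shared by title, but the labels do not say that a number stands for shared animals, litters or days. Libraries were therefore not taken as pairs. Same-numbered libraries correlated at -0.087 to 0.20 in 15 pairs, and no value for differently numbered libraries is given beside these. With the replicate block 298, 0 and 114 genes passed and 0 members.

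Directions of several members depended on the setting, and the cause was not tested. Not all of these had values near 0 in the fit of 15 libraries. For encenicline against donepezil, C1ra was at -0.18 and C1qb at -0.15 there, and both turned without donepezil 4. With TPM scaling the log2 values were in donepezil against saline C3 -0.030 and Serping1 -0.042, in encenicline against saline C7 -0.066, in encenicline against donepezil C1qc -0.058. With groups by the treatment field the log2 values were in donepezil against saline C4b 0.25, in encenicline against saline C7 -0.061, in encenicline against donepezil C1qc -0.00043. With quantile normalization the log2 values were in encenicline against donepezil C1qc -0.020. With scaling without mitochondrial genes the log2 values were in encenicline against donepezil C1qc -0.0100. With limma voom the log2 values were in donepezil against saline C3 -0.0096 and Serping1 -0.023, in encenicline against saline C7 -0.020, in encenicline against donepezil C1qc -0.020. Without donepezil 1 and encenicline 1 the log2 values were in donepezil against saline C4b 0.17. Without donepezil 4 the log2 values were in donepezil against saline C1ra -0.10, C3 -0.051 and Serping1 -0.12. In encenicline against donepezil they were, without the same library, C1qa 0.14, C1qb 0.10 and C1ra 0.0030. With each library left out in turn, the range was in donepezil against saline C1qb -0.33 to 0.075, C1ra -0.10 to 0.17, C3 -0.051 to 0.17, C4b -0.29 to 0.23 and Serping1 -0.12 to 0.13, in encenicline against saline C7 -0.024 to 0.23, in encenicline against donepezil C1qa -0.17 to 0.14, C1qb -0.30 to 0.10, C1qc -0.056 to 0.23 and C1ra -0.27 to 0.0030.

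The same held for ratios, of which 0 of 36 passed; their log2 differences are given here where the sign turned. With groups by the treatment field they were in donepezil against saline C1qb to Csf1r -0.087, C4b to C3 0.043, C1ra to Col1a1 0.092, C4b to Col1a1 0.19 and C3 to Col1a1 0.15, in encenicline against saline C1qc to Csf1r -0.011, in encenicline against donepezil Serping1 to C1ra 0.035 and C1qb to Csf1r 0.021. With a pseudocount of 0.1 they were in encenicline against donepezil Serping1 to C1ra 0.0069. With a pseudocount of 1 they were in encenicline against donepezil C4b to C3 0.024. Without donepezil 1 and encenicline 1 they were in donepezil against saline C1qb to Csf1r -0.041, in encenicline against donepezil Serping1 to C1ra 0.049 and C1qb to Csf1r 0.017. Over the fits without 1 library the range was in donepezil against saline C1qb to Csf1r -0.041 to 0.066, C1ra to Col1a1 -0.32 to 0.43, C3 to Col1a1 -0.49 to 0.48, C4b to C3 -0.36 to 0.061, C4b to Col1a1 -0.55 to 0.29, C7 to Col1a1 -0.034 to 0.98 and Serping1 to Col1a1 -0.38 to 0.41, in encenicline against saline C1qa to C1qb -0.025 to 0.056, C1qa to Csf1r -0.11 to 0.043, C1qb to Csf1r -0.10 to 0.017, C1qc to Csf1r -0.033 to 0.083 and C4b to C3 -0.36 to 0.055, in encenicline against donepezil C1qa to Csf1r -0.047 to 0.13, C1qb to Csf1r -0.12 to 0.0090, C3 to Col1a1 -0.067 to 0.90, C4b to C3 -0.15 to 0.10, C7 to Col1a1 -0.19 to 0.83 and Serping1 to C1ra -0.036 to 0.054.

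Relations that no longer passed or turned in sign are these. Without the 2 farthest libraries r became, with the macrophage sum, 0.41 for C1qa, 0.70 for C1qb, 0.51 for C1qc, 0.62 for C3, 0.32 for C4b and 0.30 for Serping1. Without the 2 farthest libraries r became, with the fibroblast sum, 0.010 for C1qa, 0.21 for C1qb, -0.044 for C1qc, 0.30 for C1ra, 0.56 for C3, 0.25 for C4b and 0.40 for Serping1. Without the 2 farthest libraries r became, between members, -0.16 for C1qa with C1ra, -0.27 for C1qa with C3, -0.14 for C1qa with C4b, 0.46 for C1qa with Serping1, 0.19 for C1qb with C1ra, 0.13 for C1qb with C7, 0.60 for C1qb with Serping1, -0.029 for C1qc with C1ra, -0.14 for C1qc with C3, 0.42 for C1qc with Serping1, 0.65 for C1ra with C4b, -0.029 for C1ra with C7, 0.44 for C1ra with Serping1, 0.57 for C3 with C4b, -0.076 for C3 with C7 and 0.61 for C4b with Serping1. Without donepezil 4 r became, with the macrophage sum, 0.55 for C1qa, 0.63 for C1qc, 0.58 for C4b and 0.61 for Serping1. Without donepezil 4 r became, with the fibroblast sum, 0.30 for C1qa, 0.46 for C1qb, 0.29 for C1qc, 0.42 for C1ra and 0.60 for C4b. Without donepezil 4 r became, between members, -0.0045 for C1qa with C1ra, -0.022 for C1qa with C3, 0.58 for C1qa with Serping1, 0.076 for C1qb with C1ra, 0.16 for C1qb with C7, 0.61 for C1qb with Serping1, 0.11 for C1qc with C1ra, 0.090 for C1qc with C7, 0.58 for C1qc with Serping1, 0.62 for C1ra with Serping1 and 0.52 for C3 with C4b.

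Depth limits C6 and the 23 untested complement genes, and 5 libraries per group limit C4b most, with a standard error of 0.34.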
